A study of Mus musculus with 22 samples.

Results

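Microglia of young adult female mice were compared with those of young adult males, with 3 RNA sequencing libraries from each sex out of 22 in the series. The members were the columns of the deposited table whose names give 8 weeks and the sex. The labels place these animals at 6 to 10 weeks of age. Both groups were untreated C57BL/6J mice titled SPF, and in both the cells were sorted from whole brain by flow cytometry as CD11b-positive, CD45-low and lineage-negative. The other 16 libraries came from mice of the same strain, sort and treatment at 50 to 54 weeks (5 middle-aged females, 5 middle-aged males) and 96 to 104 weeks (3 aged females, 3 aged males). They entered the model and, in a last step, the comparison across ages. The labels do not say whether a library is 1 animal, so a p-value reflects library-to-library spread alone, which may be technical. Libraries are named by group and the replicate number of the labels: young females 1, 3 and 4, and young males 2, 3 and 4. Of 18072 genes in the table, 12552 reached a normalized count of 10 in at least 3 of the 22 libraries and were tested, and the 12100 on autosomes are described here.

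Microglia are the resident macrophages of the brain. They survey the tissue with motile processes, sense purines through P2RY12, take up debris and synapses, and digest them in lysosomes, and their identity depends on TGF-beta signals and on CSF1 receptor signalling. In ageing and neurodegeneration a share of them takes on a state with lysosomal, lipid and antigen-presentation genes, often called disease-associated. Gonadal hormones and the sex chromosomes are both known as sources of differences between the sexes in these cells.

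Values are normalized counts, that is reads per gene divided by 1 size factor per library. They are not scaled to gene length, so levels are not compared between genes. Differences are female minus male on the scale log2(normalized count + 1), so a positive value is higher in females and a difference of 1 is 2-fold. A gene passed the test where its Benjamini-Hochberg adjusted p from limma, over all genes tested, was below 0.05.

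Young female libraries held 19.3 to 23.7 M reads in genes and young male libraries 20.6 to 26.4 M. The sex-linked genes matched the labels: Xist, the RNA that silences an X chromosome, had 4538, 4648 and 3853 normalized counts in the females and 2.53, 1.04 and 0 in the males, and the Y-linked Ddx3y, Eif2s3y and Kdm5d had no read in any young female. The 14 microglial markers summed to 2257132 to 2278234 normalized counts in females and 1678487 to 1914187 in males, so the labelled cell type was present in both. Normalized totals were higher in the young females, 23.9 to 24.0 M against 21.4 to 21.9 M, and so was the share of reads in the 10 most abundant genes, 16.2 to 16.6% against 14.2 to 15.1%. Long transcripts were lower in the young females. The slope of a library's log2 level, relative to the mean of all 22, was -0.136 to -0.0659 per doubling of transcript length in them and 0.0034 to 0.130 in the young males. Totals and length therefore moved with sex at this age. The middle-aged libraries showed the same order, with slopes of -0.0877 to -0.0038 in females and 0.0313 to 0.140 in males. Their totals were 23.2 to 24.4 M in females and 20.7 to 22.4 M in males. In the aged libraries the slopes overlapped between the sexes, and the totals lay closer but apart, 23.7 to 23.8 M in females and 23.1 to 23.6 M in males. Counts with equal totals and with the trend of length and GC content removed are given beside the main ones.

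**Figure D1:**
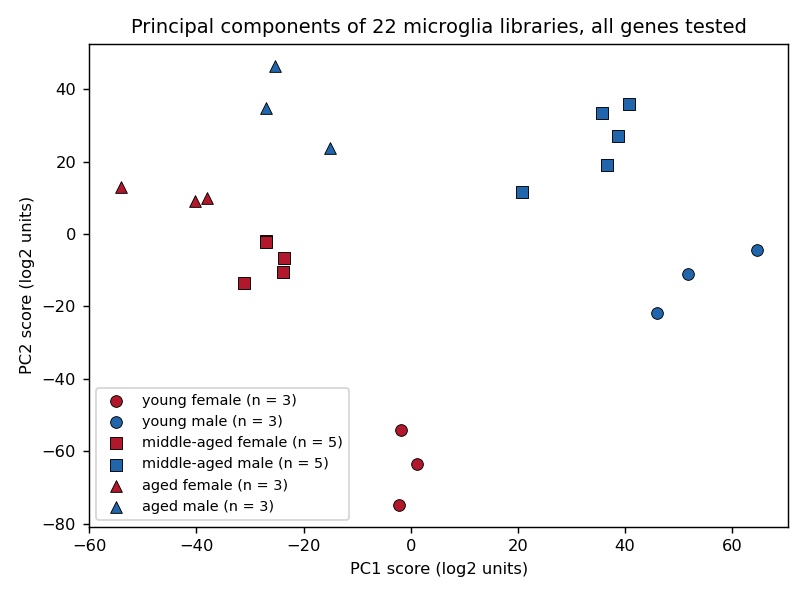
Scores of the 22 libraries on PC1 (x axis) and PC2 (y axis), in log2 units, from a principal component analysis of all genes tested; colour gives sex and marker shape gives age. The young and middle-aged males lie at 20.8 or above on PC1 and all others at 1.25 or below, and the 3 young females lie at -54.0 or below on PC2.

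Across the 22 libraries PC1 held 15.4% of the variance and PC2 12.5%. On the plot of principal components the young females stood apart from every other library on PC2, at -74.8 to -54.0 against -21.8 or above. In an analysis of the 6 young libraries alone, PC1 held 35.5% of the variance and separated the sexes.

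All 3 young female libraries also carried genes of rod photoreceptors, the light-sensing cells of the retina. Gnat1, the rod transducin subunit, had 118, 143 and 182 normalized counts in the young females and no read in the young males, at least 163-fold higher in females against a floor of 3 reads over the group. Pde6a, Rbp3, Prph2 and Pdc, genes of phototransduction and of the outer segment, likewise had no read in the young males. A list of 20 rod genes, drawn up after these values were seen and given no test, summed to 688, 770 and 951 in the young females. The same list summed to 83.5, 46.9 and 52.4 in the young males and to 41.8 to 91.4 in the other 16 libraries. Of the 20 genes, 11 had no read in any young male. In the gene-wise test 9 of the 12 that entered it passed as higher in females. Rom1 (mean 29.7 in young females and 29.35 in young males, adjusted p = 0.87), Pde6g (16.5 and 10.7, 0.78) and Pde6b (31.2 and 6.78, 0.083) did not. A further 5 genes of cones, Mueller glia and pigment epithelium summed to 6.70 to 11.1 in the females and 0 to 3.12 in the males. Among the 10 autosomal genes that passed with the largest female minus male difference, 8 were rod genes. The part of this signal in the other results was not tested, because every young female library carried it.

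Of the 12100 autosomal genes, 1959 (16.2%) passed the test: 953 (7.88%) were higher in females and 1006 (8.31%) higher in males. Most differences were modest, with 1476 of the 1959 under 1 on the log2 scale. Larger ones lay mainly on the male side, where 428 genes passed at 1 or more and 138 at 2 or more, against 55 and 26 on the female side. The median difference was 0.47 over the genes higher in females, -0.90 over those higher in males and -0.02 over all autosomal genes. Among abundant genes more passed on the female side: of 299 genes whose mean in the higher sex reached 10000 normalized counts, 141 were higher in females and 14 in males. The genes higher in females had a median longest transcript of 2.89 kb, those higher in males 4.62 kb and all autosomal genes 3.34 kb. With the genes split by transcript length into 5 bins of like size, 17.1% were higher in males and 4.23% in females in the longest bin, and 4.23% and 9.56% in the shortest. The sexes did not overlap for 3919 genes (32.4%), among them 1875 of the 1959 that passed. Lack of overlap, given for single genes below, therefore adds little to a call.

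The count depended on 2 libraries and on the libraries fitted. Without young female 4, 1293 genes passed, without young male 2, 1078, and without both, 687. A fit on the 6 young libraries alone gave 1132, 558 higher in females and 574 in males. Rescaling each library to the same total moved the median of all genes by -0.148 and split the calls into 379 higher in females and 1599 in males. Removing the trend of transcript length and GC content gave 806 and 845. Every list and gene below is therefore to be read relative to that shift.

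**Figure D2:**
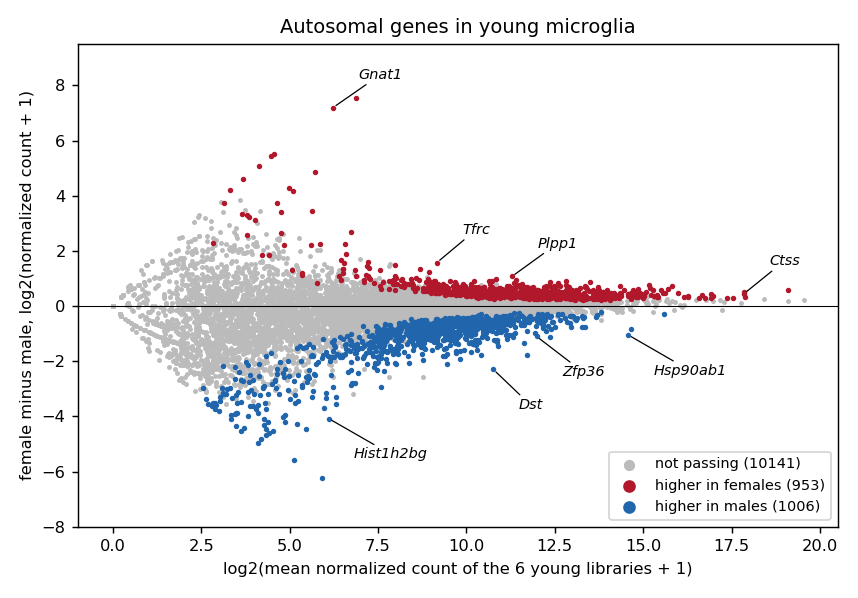
Each point is an autosomal gene, with the log2 mean normalized count of the 6 young libraries on the x axis and the female minus male log2 difference on the y axis; colour marks genes that passed the test. Most genes that passed lie within 1 of 0, and the 1006 higher in males reach larger differences more often than the 953 higher in females.

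Among 37 tested genes of homeostatic microglia, 13 were higher in females, 2 were higher in males and the median was 0.20. P2ry12, the purine receptor that guides processes to injury, had 278342, 276722 and 273501 normalized counts in females against 178518, 184296 and 220204 in males (0.51, SE 0.10, adjusted p = 0.0012). The females lay close together, the males spread more widely, and the sexes did not overlap. Tgfbr1, the type I TGF-beta receptor that microglial identity needs, had 71987, 75084 and 69160 in females and 45402, 37275 and 47774 in males, again without overlap (0.74, SE 0.11, adjusted p = 0.00013). The protease inhibitor gene Serpine2 had 35370, 35842 and 35828 against 23169, 22273 and 24784 (0.61, SE 0.08, adjusted p = 4.39e-05). The transcription factor gene Maf (-0.49, SE 0.11, adjusted p = 0.0038) and the small GTPase gene Rhob (-0.44, SE 0.12, adjusted p = 0.016), chosen after their values were seen, were the 2 members higher in males. Rhob did not pass without young female 1 (adjusted p = 0.0862) or 1 other library, and Maf did not with the length and GC trend removed.

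Other identity genes did not pass the test. Tmem119, a surface marker of microglia, had 130741, 136475 and 143993 in females and 116765, 124831 and 122311 in males (0.18, SE 0.09, adjusted p = 0.17). The fractalkine receptor gene Cx3cr1 differed by -0.15 (SE 0.09, adjusted p = 0.28) and the transcription factor gene Sall1 by -0.25 (SE 0.11, adjusted p = 0.11). With libraries rescaled to the same total, Tmem119 remained short of the threshold, Cx3cr1 and Sall1 passed as higher in males, and the homeostatic list held 8 genes higher in females and 10 in males.

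Of 33 tested genes of the disease-associated state, 11 were higher in females and 1 in males, with a median of 0.34. The lists share members, so their counts are not separate results. Among these 11, Cd68, Cd63 and Ctsl also count as lysosomal genes, and Trem2 as a homeostatic gene and a phagocytosis receptor. B2m also counts under class I and Lgals3bp under interferon. Likewise Ctss counts under both class II and lysosome, and Slc2a5 under both homeostatic genes and glycolysis. With equal totals the counts were 6 and 1. Those that passed include tetraspanin, adhesion and lysosomal genes that healthy microglia also express. Cd9, a tetraspanin gene, had 47667, 44007 and 45761 normalized counts in females and 25779, 25982 and 29443 in males (0.76, SE 0.10, adjusted p = 2.27e-05). Cadm1, for a cell adhesion molecule, had 6153, 6686 and 6654 against 3680, 3743 and 4486 (0.72, SE 0.10, adjusted p = 3.02e-05). Cd68, a lysosomal membrane protein of macrophages, and Cd52, a small surface glycoprotein, were higher by 0.48 (SE 0.09) and 0.99 (SE 0.19). The female and male libraries did not overlap for any of these 4. Lyz2, the macrophage lysozyme, went the other way, with 3639, 3532 and 2943 in females and 6224, 6263 and 5051 in males (-0.79, SE 0.19, adjusted p = 0.0058), and was chosen after its value was seen.

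Other genes of that list did not pass. Apoe, the main lipoprotein of the brain, had 8186, 6460 and 6329 normalized counts in females and 8886, 13348 and 6805 in males (-0.42, SE 0.34, adjusted p = 0.45). Clec7a, a receptor for beta-glucans, had 908, 844 and 555 against 612, 543 and 589 (0.37, SE 0.25, adjusted p = 0.35). For Cst7 the difference was 0.26 (SE 0.25), for Spp1 0.82 (SE 0.80), for Itgax 0.03 (SE 0.38) and for Lpl 0.67 (SE 0.33), with adjusted p from 0.17 to 0.975. The sexes overlapped for Clec7a, Cst7, Spp1, Itgax and Apoe.

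Of all lists described, lysosomal genes had the largest share higher in females, 25 of 48 tested, with 0 higher in males and a median of 0.32. Atp6v1h, a subunit of the proton pump that acidifies lysosomes, had 2861, 3628 and 3445 normalized counts in females and 2110, 2123 and 1954 in males (0.68, SE 0.10, adjusted p = 8.04e-05). Man2b1, the lysosomal alpha-mannosidase, had 39801, 42319 and 38487 against 26454, 26836 and 31868 (0.51, SE 0.09, adjusted p = 0.00053). In both genes the lowest female library was above the highest male library. The passing members also include cathepsins (Ctss, Ctsf, Ctsa, Ctsl, Ctsc) and enzymes that break down glycans and lipids (Glb1, Arsb, Naglu, Manba, Gaa, Asah1, Lipa). With the trend of transcript length and GC content removed, 21 were higher in females, in the fit of the young libraries alone 15, and with equal totals 13, with 0 higher in males each time.

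Phagocytosis receptors split, with 7 of 33 higher in females and 4 higher in males. Stab1, a scavenger receptor gene, had 3338, 3668 and 3150 normalized counts in females and 6235, 5733 and 7286 in males, without overlap (-0.92, SE 0.13, adjusted p = 4.34e-05). Lrp1, an endocytic receptor for apolipoproteins, had 7196, 8448 and 7532 against 13891, 10500 and 15735 (-0.78, SE 0.16, adjusted p = 0.0016), and Lrp5 had 236, 214 and 194 against 510, 292 and 452 (-0.92, SE 0.21, adjusted p = 0.0038). Lrp1 and Lrp5 did not pass once the length and GC trend was removed, when 10 members were higher in females and 1 in males. With equal totals 2 were higher in females and 7 in males, so the list has no single direction.

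Antigen-presentation genes lay on the female side. For class II, which shows peptides to helper T cells, 7 of 15 tested genes were higher in females and 0 in males, with a median of 0.44. Of the members that passed, H2-DMa, H2-DMb1, H2-Oa and H2-Ob act in peptide exchange, Ctss and Lgmn are lysosomal proteases, and Cd86 encodes a co-stimulatory ligand. With equal totals 3 passed as higher in females, and likewise 3 with the length and GC trend removed. H2-DMa, a subunit of the peptide exchange factor, had 6300, 7197 and 6518 normalized counts in females and 5170, 5274 and 5086 in males (0.36, SE 0.08, adjusted p = 0.0026). H2-DMb1, its partner, differed by 0.44 (SE 0.10), H2-Ob by 0.55 (SE 0.12) and Ctss, the protease that trims the invariant chain, by 0.44 (SE 0.10). The classical chain H2-Aa had 166, 0 and 42.4 in females and 1.69, 38.5 and 9.98 in males, with full overlap (0.88, SE 1.11, adjusted p = 0.65), and passed only without young female 3, the library with no read of it (3.02, adjusted p = 0.0129). For class I, 4 of 16 were higher in females and 0 in males, against 1 with equal totals and 2 with the length and GC trend removed. Tapbp, which holds class I molecules at the peptide pump, had 15862, 16942 and 15811 against 11056, 12164 and 14127 (0.39, SE 0.08, adjusted p = 0.0012). The pump subunit Tap2 (0.37, SE 0.10) did not pass without young male 2 (adjusted p = 0.0616). The light chain B2m had 55852, 54573 and 57513 against 42156, 37925 and 41104 (0.47, SE 0.14, adjusted p = 0.025) and failed to pass when any of 4 libraries was left out, with an adjusted p of up to 0.083 without young male 3. The heavy chain H2-D1 did not pass (0.35, SE 0.19, adjusted p = 0.23). Ctss and B2m did not pass after removal of the length and GC trend, nor did H2-DMa, Tap2 and B2m with equal totals, nor Tapbp in the fit of the young libraries alone.

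Of 17 complement genes, 4 were higher in females and 0 in males. C3ar1, the receptor for the C3a fragment, had 17791, 16149 and 15425 normalized counts in females and 10235, 10038 and 12768 in males (0.59, SE 0.12, adjusted p = 0.0017). C1qa, a chain of the C1q initiator that tags synapses, had 140015, 137812 and 148251 against 99898, 117511 and 101456 (0.42, SE 0.09, adjusted p = 0.0034). The sexes did not overlap in either gene. C3 itself had 98.3, 59.7 and 28.7 in females and 1.69, 19.8 and 71.5 in males (1.82, SE 0.90, adjusted p = 0.17) and passed only without young male 4, and C4b differed by 0.18 (SE 0.55, adjusted p = 0.87). Among 23 purinergic receptors and ectoenzymes 5 were higher in females and 0 in males. Next to P2ry12 and P2ry13 these were Enpp4, the ATP-release channel gene Panx1 (0.79, SE 0.22) and the ATP-gated channel gene P2rx1 (0.92, SE 0.28). Panx1 lost its call without any of 3 libraries (adjusted p up to 0.0876) and P2rx1 without any of 4 (up to 0.133), in both cases highest without young male 2, and neither passed in the fit of the young libraries alone.

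Among Toll-like receptors and innate sensors, 7 of 35 genes were higher in females and 3 in males. With equal totals, and also with the length and GC trend removed, the counts were 4 and 4, so the list has no direction that holds across these settings. Tlr3, the endosomal sensor of double-stranded RNA, had 4445, 3990 and 3399 normalized counts in females and 2512, 2289 and 2485 in males (0.69, SE 0.12, adjusted p = 0.0003). Cd14, the co-receptor for lipopolysaccharide, had 17622, 17607 and 18285 against 12303, 13347 and 13284 (0.46, SE 0.10, adjusted p = 0.0019), and Tmem173, which encodes STING, differed by 0.45 (SE 0.09, adjusted p = 0.00088). Nod2, a sensor of bacterial cell wall fragments, went the other way at a low level, with 2.23, 1.01 and 1.25 in females and 15.2, 33.3 and 44.9 in males (adjusted p = 0.00012). Female and male values were apart in all 4 genes.

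The type I interferon list gave no common direction: 2 of 44 were higher in females and 2 in males, 9.09% of the list against the 16.2% of all autosomal genes. Cmpk2 had 221, 139 and 94.7 normalized counts in females and 51.4, 24.0 and 42.4 in males (1.90, SE 0.58, adjusted p = 0.026), while Mx1 had 1.12, 21.3 and 36.1 in females and 64.1, 72.9 and 81.5 in males (-2.61, SE 0.67, adjusted p = 0.0093). Cmpk2 lost its call without any of 3 libraries (adjusted p up to 0.113 without young female 1), and Mx1 without young female 1 (0.0647). Mx2 (-1.83, SE 0.50) lost it without 2 libraries (up to 0.0872 without young male 4), and Lgals3bp (0.74, SE 0.23) without 4 (up to 0.11 without young male 2). Neither Mx gene passed in the fit of the young libraries alone, and Lgals3bp did not with equal totals. Ifit3 did not pass (0.80, SE 0.42, adjusted p = 0.2).

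Inflammatory cytokines and chemokines counted 1 of 23 higher in females and 3 higher in males. That was 17.39% of the list, near the 16.2% of all autosomal genes. Ccl3, a chemokine of activated microglia, had 357, 249 and 253 normalized counts in females and 657, 498 and 754 in males (-1.15, SE 0.28, adjusted p = 0.006). Osm, a cytokine of the interleukin-6 family, had 325, 241 and 178 against 408, 444 and 438 (-0.83, SE 0.21) and did not pass without young female 4 (adjusted p = 0.0619). Tgfb1 (-0.42, SE 0.12) and Ccl9 (0.49, SE 0.15) passed with all libraries and failed without 2 and 3 of them, at up to 0.146 without young female 1 and 0.125 without young male 3. Osm, Tgfb1 and Ccl9 did not pass in the fit of the young libraries alone. Il1b had 164, 120 and 58.6 against 52.3, 101 and 75.7 (0.50, SE 0.36, adjusted p = 0.38), and Tnf 33.5, 21.3 and 26.2 against 45.5, 38.5 and 107 (-1.08, SE 0.95, adjusted p = 0.49). Neither of these 2 passed. In the NF-kB pathway 2 of 28 were higher in females and 6 in males. Map3k14, the kinase that starts the non-canonical branch, had 293, 424 and 454 in females and 900, 810 and 965 in males (-1.21, SE 0.24, adjusted p = 0.0012), and Nfkbid, a nuclear inhibitor, 107, 60.8 and 41.1 against 253, 219 and 177 (-1.71, SE 0.38, adjusted p = 0.0033). On the female side were Bcl10 (0.40, SE 0.10), which did not pass with equal totals, and Icam1 (0.40, SE 0.10), which did not pass in the fit of the young libraries alone.

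**Figure D3:**
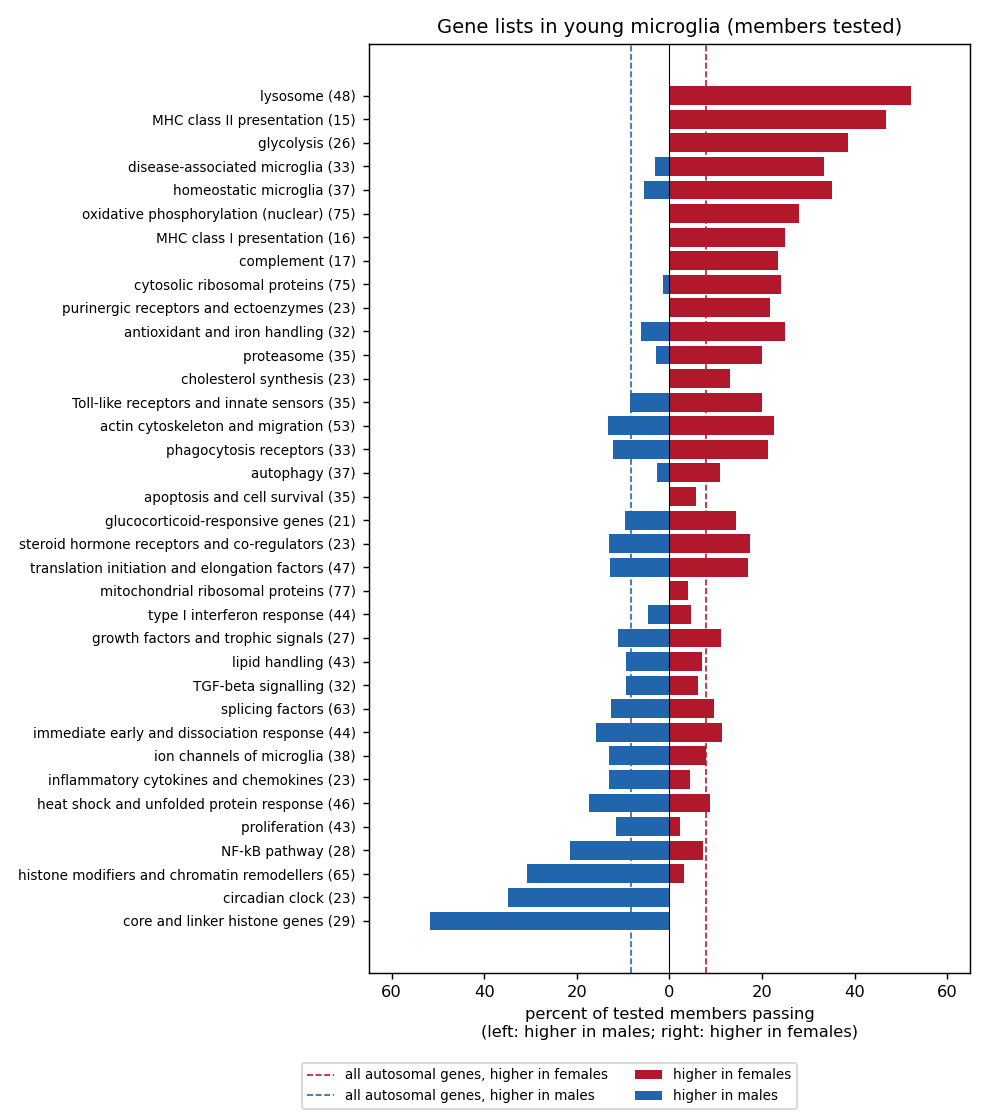
Bars give, for each list with at least 15 tested members (number in parentheses), the percent of members that passed as higher in females (to the right) and higher in males (to the left); dashed lines give the same for all autosomal genes. Lysosome and class II lists extend furthest to the right, and histone genes, circadian clock and chromatin regulators furthest to the left.

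The plot of gene lists sets these counts beside the shares for all autosomal genes. Energy metabolism lay on the female side. Of 26 glycolysis genes, 10 were higher in females and 0 in males, with a median of 0.34. With equal totals 5 were higher in females. Slc16a3, a lactate exporter, had 1439, 1352 and 1411 normalized counts in females and 803, 746 and 899 in males (0.78, SE 0.17, adjusted p = 0.0025). Hk2, the hexokinase that commits glucose to the pathway, had 3875, 4027 and 3872 against 2829, 2262 and 2481 (0.64, SE 0.15, adjusted p = 0.0038), and the fructose transporter gene Slc2a5 differed by 0.46 (SE 0.09) and did not pass in the fit of the young libraries alone. Of 75 nuclear genes of oxidative phosphorylation, 21 were higher in females and 0 in males, with a median of 0.31. Atp5a1, the alpha subunit of ATP synthase, had 12742, 13211 and 13027 in females and 7833, 8590 and 7802 in males (0.69, SE 0.07, adjusted p = 2.59e-06). Ndufa9 of complex I differed by 0.49 (SE 0.09) and Atp5h by 0.63 (SE 0.13). With the length and GC trend removed 8 were higher in females, the median was 0.09 and Atp5h did not pass. With equal totals 5 were higher in females.

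Iron and redox genes counted 8 of 32 higher in females and 2 in males. Tfrc, the transferrin receptor that brings in iron, had 797, 744 and 1038 normalized counts in females and 243, 298 and 319 in males (1.58, SE 0.28, adjusted p = 0.00046). This was among the larger female-side differences at that level, without overlap. Gsr, glutathione reductase, differed by 0.74 (SE 0.13, adjusted p = 0.00054) and Gpx1, a glutathione peroxidase, by 0.68 (SE 0.15, adjusted p = 0.0029). The 2 members higher in males were Gclc, a subunit of the enzyme that starts glutathione synthesis, and Ncf1, a subunit of the phagocyte NADPH oxidase. Outside that list, Slc25a37, mitoferrin, which imports iron into mitochondria, was higher in males, with 286, 297 and 271 in females and 1105, 1060 and 838 in males (-1.80, SE 0.19, adjusted p = 2.33e-06).

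Of 75 cytosolic ribosomal protein genes, 18 were higher in females and 1, Rpl10a, in males, with a median of 0.43. Rpl32 had 1689, 1391 and 1540 normalized counts in females and 800, 891 and 765 in males (0.91, SE 0.19, adjusted p = 0.0024), Rps3 had 5937, 5198 and 5486 against 3858, 3803 and 3641 (0.55, SE 0.12, adjusted p = 0.0037), and Rpl37a differed by 0.99 (SE 0.24, adjusted p = 0.0065). Female values lay above male values in all 3. These genes have processed pseudogenes of near-identical sequence, so the split of reads between copies is uncertain. With the length and GC trend removed 11 were higher in females, and with equal totals 8. Mitochondrial ribosomal protein genes counted 3 of 77 higher in females, below the 7.88% of all autosomal genes.

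Among genes of at least 1000 normalized counts, Plpp1, a lipid phosphate phosphatase, had the largest female-side difference, with 3330, 3170 and 3622 in females and 1492, 1385 and 1983 in males (1.07, SE 0.12, adjusted p = 2.59e-06). Sppl2a, an intramembrane protease that clears the stub of the invariant chain, had 9839, 9571 and 8946 against 5015, 5127 and 4893 (0.91, SE 0.09, adjusted p = 3.37e-07). Slamf9, a receptor of the SLAM family, differed by 0.94 (SE 0.14), Npnt, an extracellular ligand of integrin alpha 8, by 0.89 (SE 0.15) and Ephx1, the microsomal epoxide hydrolase, by 0.88 (SE 0.16). At lower levels, Cd44, a hyaluronan receptor, had 124, 145 and 33.7 in females and 0, 8.33 and 1.66 in males (4.88, SE 0.77, adjusted p = 0.00016), and Olfm4, an olfactomedin, 249, 105 and 192 against 14.3, 27.1 and 44.1 (2.68, SE 0.45, adjusted p = 0.0003). The Wnt receptor gene Fzd8 (1.67, SE 0.28) and Perp (1.58, SE 0.35), a membrane protein of the p53 response, were also higher in females. These low-level genes were measured beside the rod transcripts in the same 3 libraries.

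Among 53 genes of the actin cytoskeleton and migration, 12 were higher in females and 7 in males. Arpc4, a subunit of the branching complex Arp2/3, had 12895, 12648 and 14094 normalized counts in females and 7401, 8901 and 9314 in males (0.64, SE 0.08, adjusted p = 2.78e-05). The GTPases Cdc42 (0.44, SE 0.08) and Rac1 (0.42, SE 0.07) were higher in females, and the myosin gene Myh9 was lower, with 1329, 1911 and 1473 against 2641, 2116 and 2763 (-0.68, SE 0.14, adjusted p = 0.0018). With the length and GC trend removed 9 were higher in females and 1 in males, and neither Cdc42 nor Myh9 passed. With equal totals 5 were higher in females and 12 in males.

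**Figure D4:**
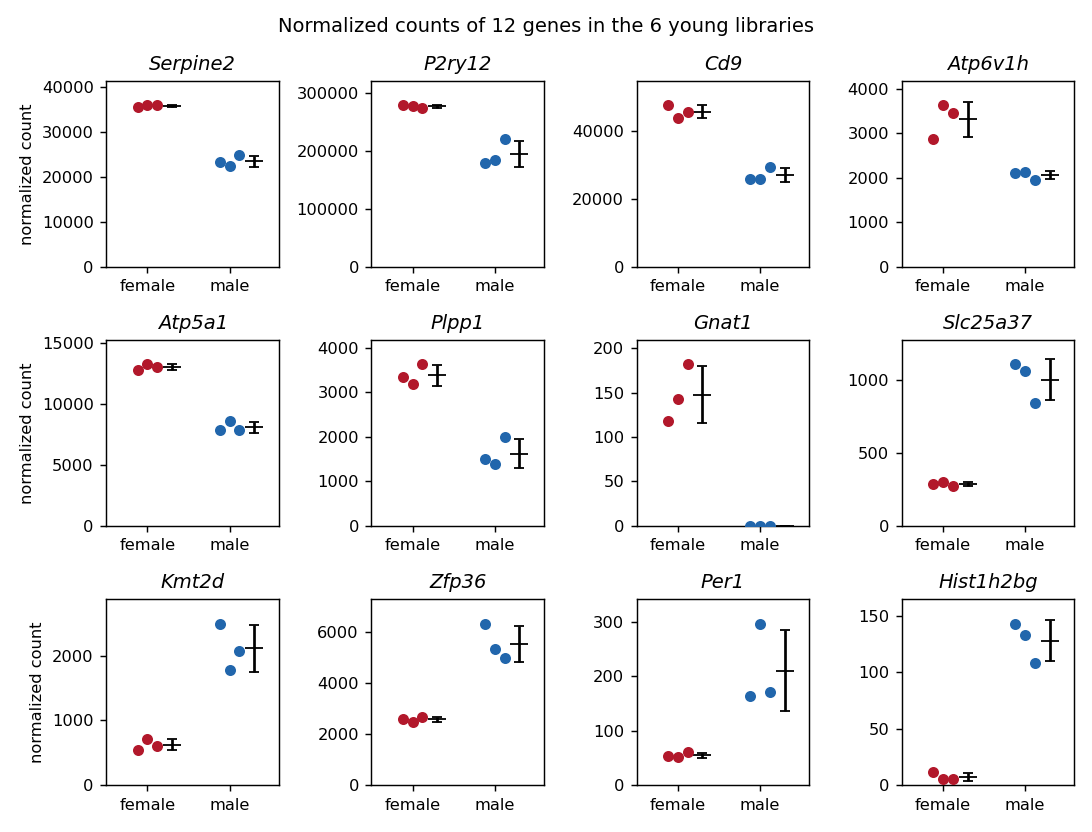
Normalized counts (y axis, from 0) of 12 genes in the 3 young female and 3 young male libraries; points are libraries, and the bar beside each group is its mean with 1 SD. The sexes do not overlap in any of the 12 genes, as in 1875 of the 1959 autosomal genes that passed.

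On the male side, histone genes, clock genes and chromatin regulators had the largest shares that passed. Of 65 histone modifiers and chromatin remodellers, 20 were higher in males and 2, Hdac2 and Hdac9, in females, with a median of -0.42. Chd7, a nucleosome remodeller, had 1765, 1342 and 1757 normalized counts in females and 3829, 3261 and 3362 in males (-1.11, SE 0.11, adjusted p = 1.35e-06). Kmt2d, an enhancer histone H3 lysine 4 methyltransferase, had 539, 711 and 608 against 2496, 1774 and 2075 (-1.77, SE 0.26, adjusted p = 7.45e-05), and its relative Kmt2c 936, 1029 and 1037 against 3706, 2689 and 2078 (-1.46, SE 0.18, adjusted p = 1.24e-05). In all 3 genes the highest female library was below the lowest male library. Tet3, which oxidises methylated cytosine, differed by -1.34 (SE 0.18) and the DNA methyltransferase gene Dnmt3a by -1.24 (SE 0.16), while Dnmt3b did not pass (-0.75, SE 0.66, adjusted p = 0.48). With the length and GC trend removed 10 were higher in males and 1 in females, and the median was -0.12, while Chd7, Kmt2c, Kmt2d, Tet3 and Dnmt3a still passed. The giant cytoskeletal linkers Dst (-2.30, SE 0.27) and Macf1 (-1.78, SE 0.23), the collagen gene Col27a1 (-2.09, SE 0.26) and the nonsense-mediated decay kinase gene Smg1 (-1.69, SE 0.27) were among the largest male-side differences at 1000 normalized counts or more. So were Tnrc18 (-1.81, SE 0.24) and Fnbp4 (-1.75, SE 0.25).

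Core and linker histone genes had the largest share of all lists described on the male side, 15 of 29 tested higher in males and 0 in females. Hist1h2bg had 11.2, 5.06 and 4.99 normalized counts in females and 143, 133 and 108 in males (-4.08, SE 0.54, adjusted p = 2.84e-05). Hist1h2be had 20.1, 62.8 and 52.4 against 428, 381 and 201 (-2.95, SE 0.45, adjusted p = 0.00013), and Hist1h2ac 0, 3.04 and 0 against 122, 114 and 118, with 3 reads in all young females. The H4 gene Hist1h4c (2.23, 8.10 and 0 against 70.0, 45.8 and 37.4) and the linker gene Hist1h1d (4.47, 3.04 and 0 against 89.4, 59.4 and 14.1) showed the same order. The sexes did not overlap for any of the 5. Canonical histone messages mostly end in a stem-loop without a poly(A) tail, and copies in a cluster are near-identical, so the split of reads among them is uncertain. The count was 15 also with the length and GC trend removed and with equal totals, and 14 in the fit of the young libraries alone.

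Of 43 proliferation genes 5 were higher in males and 1, Mcm3, in females, so that a smaller share of the list passed (13.95%) than of all autosomal genes (16.2%). Mki67, the nuclear antigen of cycling cells, had 14.5, 0 and 0 normalized counts in females and 22.8, 86.4 and 44.9 in males (-4.20, SE 1.01, adjusted p = 0.006), and the spindle gene Kif23 had no read in young females and 67.5, 20.8 and 14.1 in males. The other 3 on the male side were the cyclin D1 gene Ccnd1, Top2a and Aurkb. Mki67 did not pass in the fit of the young libraries alone, where 1 gene of the list was higher in males.

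Immediate early and dissociation-response genes, which respond within minutes to stimulation or tissue handling, counted 7 of 44 higher in males and 5 in females, with a median of -0.34. Zfp36, which destabilises cytokine messages, had 2601, 2462 and 2642 normalized counts in females and 6324, 5317 and 4958 in males (-1.10, SE 0.13, adjusted p = 7.92e-06). Ier2 had 255, 257 and 175 against 710, 545 and 725 (-1.53, SE 0.21, adjusted p = 4.34e-05), Gadd45g 294, 195 and 193 against 673, 587 and 515 (-1.40, SE 0.24, adjusted p = 0.00037), and Junb 3803, 3408 and 3725 against 5740, 5352 and 5414 (-0.59, SE 0.14, adjusted p = 0.0049). The sexes were apart in these 4 genes. The 5 genes on the female side were Rgs2, Btg1, Sgk1, Klf6 and Dusp6. With equal totals 0 of the list were higher in females and 10 in males, and with the length and GC trend removed 1 and 7.

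Heat shock and unfolded protein genes had no single direction, with 8 of 46 higher in males, 4 in females and a median of -0.07. On the male side were Hsf1, Hsp90ab1, Hsp90aa1, Ahsa1, Stip1, Atf4, Ddit3 and Ern1, and on the female side Xbp1, Dnajb9, Hspa9 and Canx. In the fit of the young libraries alone 2 were higher in males and 3 in females, and with equal totals 11 and 1. Hsp90ab1, a cytosolic chaperone, had 14942, 14721 and 15618 normalized counts in females and 46084, 37267 and 17514 in males (-1.04, SE 0.21, adjusted p = 0.0012). Young male 4 lay close to the females and the other 2 males far above, and the gene did not pass in the fit of the young libraries alone. Hsf1, the master factor of heat shock, had 711, 828 and 562 against 1179, 1162 and 1206 (-0.77, SE 0.13, adjusted p = 0.00037), and Atf4, the effector of the integrated stress response, 2289, 2675 and 2419 against 3549, 3705 and 3916 (-0.60, SE 0.12, adjusted p = 0.0012). Xbp1, of the endoplasmic reticulum branch, was higher in females, with 17892, 17960 and 16413 against 12540, 13070 and 11456 (0.50, SE 0.10, adjusted p = 0.0015). Splicing factors gave 8 of 63 higher in males and 6 in females, 22.22% of the list against 16.2% of all autosomal genes. With equal totals the counts were 14 and 1. The kinases Clk1 (-1.33, SE 0.20, adjusted p = 9.29e-05) and Clk4 (-1.04, SE 0.22, adjusted p = 0.0026), which phosphorylate SR proteins, and the helicase gene Ddx5 (-0.57, SE 0.10, adjusted p = 0.00054) were on the male side.

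Of 23 circadian clock genes, 8 were higher in males and 0 in females, with a median of -0.33. The clock is a loop in which CLOCK and BMAL1 bind E-boxes to switch on the Per and Cry genes, whose proteins shut them off, while PAR-domain factors such as TEF act through D-boxes. RefSeq promoter windows (build GRCm38.p6, 250 bases before to 50 after an annotated start) were at hand for 19 of the 23 genes. The windows shown are of the 4 clock genes with the smallest adjusted p and were chosen to hold an E-box or a D-box. A match in each of them therefore follows from that choice. Sequences read 5′ to 3′ on the gene's strand, and capitals mark each match to the E-box CACGTG or to the D-box TTATGTAA on either strand. The windows are, in order, chr11:69098699-69098998 on the plus strand, chr4:151044616-151044915 on the minus strand, chr15:81802423-81802722 on the plus strand and chr6:145865371-145865670 on the minus strand.
Per1: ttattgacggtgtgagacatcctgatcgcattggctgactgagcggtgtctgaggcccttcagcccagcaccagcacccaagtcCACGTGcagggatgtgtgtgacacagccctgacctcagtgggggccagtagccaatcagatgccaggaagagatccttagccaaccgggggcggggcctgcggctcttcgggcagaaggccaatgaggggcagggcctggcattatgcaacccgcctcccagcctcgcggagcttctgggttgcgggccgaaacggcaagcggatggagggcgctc
Per3: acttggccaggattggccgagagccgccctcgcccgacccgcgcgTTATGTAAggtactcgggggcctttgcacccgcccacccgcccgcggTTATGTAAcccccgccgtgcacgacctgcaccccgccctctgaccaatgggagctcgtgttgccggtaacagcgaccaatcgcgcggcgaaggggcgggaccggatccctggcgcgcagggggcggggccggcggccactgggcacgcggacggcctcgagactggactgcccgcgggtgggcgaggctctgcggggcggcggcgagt
Tef: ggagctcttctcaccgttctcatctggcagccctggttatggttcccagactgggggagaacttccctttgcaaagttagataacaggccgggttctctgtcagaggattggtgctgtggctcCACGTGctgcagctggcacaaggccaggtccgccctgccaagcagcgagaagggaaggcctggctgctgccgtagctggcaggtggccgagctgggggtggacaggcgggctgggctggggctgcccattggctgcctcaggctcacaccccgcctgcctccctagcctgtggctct
Bhlhe41: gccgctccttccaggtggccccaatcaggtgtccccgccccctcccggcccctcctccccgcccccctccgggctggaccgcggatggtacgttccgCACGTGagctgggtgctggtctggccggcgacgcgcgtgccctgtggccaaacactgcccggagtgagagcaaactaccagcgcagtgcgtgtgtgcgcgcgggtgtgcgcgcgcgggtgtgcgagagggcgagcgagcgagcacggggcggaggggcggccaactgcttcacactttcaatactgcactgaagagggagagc
The table holds a second window, at another annotated start, for Per1 (no match) and for Tef (an E-box 138 bases before that start). In the windows shown, the E-box begins 166 bases before the start in Per1, 127 in Tef and 153 in Bhlhe41, and Per3 has D-boxes 205 and 158 bases before it. The 2 motifs do not overlap here. The E-box occurs in 7.15% of all 32851 such windows and in 9.87% of those of autosomal genes tested, and the D-box in 0.938% and 0.576%. Among clock genes with a window, 4 of 7 that passed and 2 of 12 that did not pass held a match in at least 1 window. The 4 are those shown, while Csnk1e, Nr1d2 and Clock held no match, and the 2 are Cry1 and Ciart. These counts are per gene, for either motif in any of its windows. The percentages are per window and per motif, so they are not a like measure. A match is a description of letters and not of binding.

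Per1, a light- and glucocorticoid-inducible period gene whose window with an E-box is shown, had 53.6, 50.6 and 59.8 normalized counts in females and 163, 297 and 171 in males (-1.87, SE 0.35, adjusted p = 0.00073). Per3, with the D-boxes, had 94.9, 126 and 122 against 438, 301 and 280 (-1.55, SE 0.24, adjusted p = 0.00016), and Per2, chosen after its value was seen, 2.23, 44.6 and 21.2 against 154, 59.4 and 158. Tef had 1229, 1199 and 1615 against 2211, 1818 and 2586 (-0.71, SE 0.15, adjusted p = 0.0022), and the repressor gene Bhlhe41 1731, 1428 and 1297 against 2622, 1841 and 2604 (-0.66, SE 0.14, adjusted p = 0.0031). Every male library lay above every female library in the 5 genes. Csnk1e, Nr1d2 and Clock also passed, and Arntl, which encodes BMAL1, did not. The labels used here give no hour of collection. Tef and Bhlhe41 did not pass in the fit of the young libraries alone, where 3 clock genes were higher in males.

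Neither hormone receptor named here passed the test. Esr1, the estrogen receptor alpha, had 437, 159 and 221 normalized counts in females and 204, 161 and 212 in males (0.38, SE 0.37, adjusted p = 0.54), and Nr3c1, the glucocorticoid receptor, 7671, 8302 and 8382 against 7503, 6832 and 7653 (0.15, SE 0.09, adjusted p = 0.28). Of 23 steroid receptors, enzymes and co-regulators, 4 were higher in females and 3 in males, among the latter the co-repressor Ncor1 (-0.63, SE 0.14) and the co-activator Ncoa3. Ncor1 did not pass with the length and GC trend removed. Among 38 ion channel genes, 3 were higher in females and 5 in males, 21.05% of the list against 16.2% of all autosomal genes. The counts were 3 and 9 with equal totals and 4 and 2 with the length and GC trend removed. Kcnk13, which encodes the THIK-1 potassium channel that sets the resting potential of microglia, had 6089, 5290 and 5796 against 3541, 3592 and 3980 (0.63, SE 0.09, adjusted p = 0.0001), and Trpm2, an oxidant-gated calcium channel, 771, 726 and 803 against 1762, 1370 and 1489 (adjusted p = 0.0002).

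Markers of other brain and blood cells were low beside those of microglia, and in bulk libraries fewer cells of a type and less RNA per cell cannot be told apart. Summed astrocyte markers (9 genes) were 4665 to 5706 normalized counts in females and 6191 to 8280 in males, and pericyte markers (6 genes) 17.5 to 22.3 and 33.3 to 41.7. Endothelial markers (9 genes, Cldn5 and Ly6c1 at 0) were 15290 to 16107 in females and 10837 to 11788 in males, and B-cell markers (4 genes) 1705 to 2442 and 1184 to 1466. These 4 sums and that of microglial markers did not overlap between the sexes, for which the exact permutation p is 0.1, the smallest that 3 against 3 allows. Of the single markers in these 4 sums that were tested, Slc1a3 of the astrocyte, Bsg of the endothelial and Cd79b of the B-cell markers passed, and 0 of the 4 tested pericyte markers did. The sums do not give the direction of most members. Of 7 tested astrocyte markers 5 lay on the female side and 2, with Slc1a3, on the male side (median 0.94). The 6 tested endothelial markers split 3 and 3 (median -0.17). Neutrophil markers (9 genes, 6 of them without a read in the young libraries) were at 0 to 11.2, and border-associated macrophage markers (5 genes) at 4.99 to 98.3 in females and 37.4 to 306 in males. Choroid plexus and ependymal markers (6 genes) reached 2256 in young male 2 and 290 in young female 1 and were at 12.5 or below in the other 4. The part of these markers in the gene lists was not tested.

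At 52 weeks 2622 autosomal genes (21.7%) passed between the sexes and at 104 weeks 44 (0.364%). The 3 sex comparisons share no library, but their tests share the residual spread of 1 model, so passing at 2 ages is not independent. Of the 1959 genes that passed at 8 weeks, 1786 (91.2%) had the same sign at 52 weeks, against 69.5% of all autosomal genes. At 52 weeks 1053 (53.8%) passed in the same direction and 13 in the opposite one, against 2350 (19.4%) and 272 of all autosomal genes. At 104 weeks 1358 (69.3%) had the same sign, against 57.5% of all. There 12 (0.613%) passed in the same direction and 3 in the opposite one, against 30 (0.248%) and 14 of all. Length slopes and normalized totals were also apart by sex at 52 weeks, in the same order as at 8. At 104 weeks the slopes overlapped, while the totals were still apart in that order. The part of slopes and totals in these shares was not tested. Lysosomal genes counted 38 higher in females at 52 weeks and 0 at 104, and chromatin regulators 28 and 0 higher in males. Histone genes counted 16 higher in males at 52 weeks and 0 at 104, clock genes 4 higher in males and 3 in females at 52 weeks, and ribosomal protein genes 3 higher in females and 7 in males. In these 5 lists 0 members had a sex difference that itself differed between 8 and 52 weeks past the threshold. Between 8 and 104 weeks it did for 3 of 48 lysosomal genes, 4 of 65 chromatin regulators and 6 of 29 histone genes. It did for 3 of 23 clock genes and 0 of 75 ribosomal protein genes, against 2.83% of all autosomal genes. For the other members a loss of the difference by 104 weeks is not shown.

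**Figure D5:**
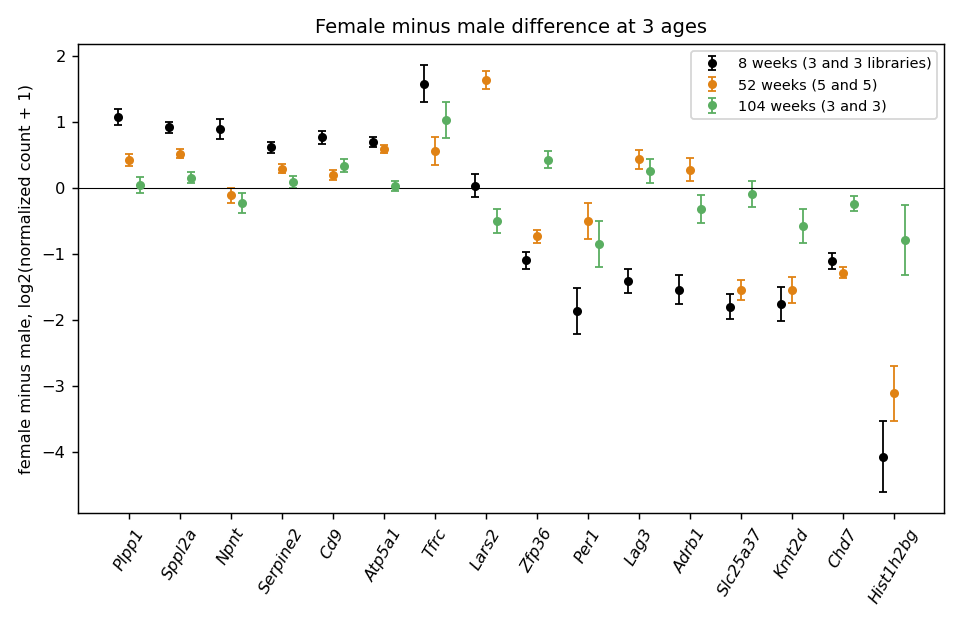
Female minus male difference (y axis, log2 of normalized count + 1) of 16 genes at 8, 52 and 104 weeks; bars are 1 SE from limma. Plpp1, Sppl2a and Slc25a37 keep their sign with smaller size at 52 weeks and lie near 0 at 104 weeks, and Lag3 lies below 0 at 8 weeks and above it later.

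The difference between the sexes itself differed between 8 and 52 weeks for 49 genes (0.405%), 16 of them (0.132%) with a larger female minus male value at 8 weeks and 33 (0.273%) with a smaller one, and between 8 and 104 weeks for 343 (2.83%), 163 (1.35%) of them larger at 8 weeks and 180 (1.49%) smaller. Lag3, an immune checkpoint receptor gene, had 566, 689 and 779 normalized counts in young females and 1942, 1568 and 1902 in young males (-1.42, SE 0.18), and differed by 0.43 (SE 0.14) at 52 weeks and 0.25 (SE 0.18) at 104. Adrb1, the beta-1 adrenergic receptor gene, had 286, 388 and 334 against 799, 1166 and 997 (-1.55, SE 0.22) and differed by 0.27 (SE 0.17) and -0.32 (SE 0.22) at the later ages. Npnt was above 0 at 8 weeks (0.89) and below it later, with -0.11 (SE 0.11) at 52 weeks and -0.23 (SE 0.15) at 104. Zfp36 changed sign between 8 weeks (-1.10) and 104 weeks (0.43, SE 0.13), and Slc25a37 went from -1.80 to -0.09 (SE 0.19). The tests of these differences are given among the closing observations.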

How the data were processed

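The authors' deposited table gives a signal for each gene symbol and library: counts of reads scaled by a library size factor. A step per read was fitted to the low values, and 100% of values came out as whole reads within 0.01. Per the submitters' processing notes, reads were handled with STAR 2.5.2 and Trim Galore 0.4.3 on the mm10 build, and DESeq2 1.32.0 ran in R 4.1.0. Steps not given in the sources used here are the counting tool and its annotation. Per the labels, complementary DNA was made with SMARTer v4 and libraries with Nextera XT.

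Depth was 17.7 to 34.4 M recovered reads. Genes with a value of 10 or more in at least 3 of 22 libraries were tested on log2(value + 1). One limma 3.58.1 model (R 4.3.3, trended empirical Bayes, two-sided) held 6 group means, and gave the sex difference at each age and how it differs between ages. P-values were Benjamini-Hochberg adjusted over all 12552 genes tested. The script was tested on simulated data. Positions, lengths and GC content came from GENCODE (GRCm38, the assembly of mm10); 97.3% of tested genes had a length and GC content.

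Same-numbered young libraries do not deviate together, so numbers were not treated as pairs. Alternatives were other pseudocounts and filters, TMM, equal totals, edgeR 4.0.16 and DESeq2 1.42.0 on recovered reads, a fit restricted to the groups compared, a replicate block, leaving out libraries, removing a length and GC trend, and thinning. The members, lists and tests were chosen with earlier results of these data known. The rule for named genes takes those that passed without overlap with the largest differences (up to 12 a side with a mean of at least 50 in the higher group, up to 8 with at least 1000), up to 4 members per list, up to 6 a side for each age difference, and a set of microglial, immune and receptor genes; predicted genes are left out, and some other genes are not reported here. Values printed are a selection of these, made after their behaviour was seen.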

Additional observations from a re-analysis of the deposited data

Results flagged for a closer look

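For the genes below the female minus male difference itself differed between ages in limma's interaction test (adjusted p below 0.05). Values are the difference at 8 weeks less that at the later age, on the log2(normalized count + 1) scale, so a negative value means that females stood relatively lower, against males, at 8 weeks than later. No explanation is weighed, and all 23 were drawn from the named genes of the report.

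Against 52 weeks, Lag3, an immune checkpoint receptor gene, gave -1.85 (SE 0.23, adjusted p = 0.0002) and Adrb1, an adrenergic receptor gene, -1.82 (SE 0.28, adjusted p = 0.0013). The phosphodiesterase gene Pde2a gave -1.33 (SE 0.20), Lrrc25 -1.14 (SE 0.21) and Clip2, for a microtubule linker, -1.16 (SE 0.26). Lars2, the mitochondrial leucyl-tRNA synthetase, gave -1.60 (SE 0.23, adjusted p = 0.00078): it did not differ past the threshold at 8 weeks (0.03) and was higher in females at 52 weeks (1.63). On the other side were Npnt with 1.00 (SE 0.19), Snx29 with 1.02 (SE 0.21), Smek1 with 0.74 (SE 0.14) and the innate immune enzyme gene Lacc1 with 0.66 (SE 0.14). Npnt and Smek1 did not pass without young female 1 (adjusted p = 0.0571 and 0.0648). Clip2 failed in 12 of 16 fits that each left out 1 library (up to 0.129, without young female 1), Snx29 in 8 (up to 0.0878, without young female 4) and Lacc1 in 7 (up to 0.0859, without young female 4). Lag3, Adrb1, Pde2a, Lrrc25 and Lars2 passed in all 16.

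Against 104 weeks, Lag3 gave -1.67 (SE 0.26, adjusted p = 0.0015), Zfp36 -1.53 (SE 0.18, adjusted p = 0.00016) and Slc25a37 -1.71 (SE 0.27, adjusted p = 0.0015). Plpp1 gave 1.04 (SE 0.17), Sppl2a 0.76 (SE 0.12), Npnt 1.12 (SE 0.21) and Klrd1, a natural killer receptor gene, 2.47 (SE 0.55, adjusted p = 0.016). These 7 passed in all 12 fits that each left out 1 library. Cd44 gave 4.21 (SE 1.09), Olfm4 2.41 (SE 0.64), Trim16 2.62 (SE 0.70), Hist1h2bg -3.28 (SE 0.76), Adgre4 -3.34 (SE 0.92) and the DNA methyltransferase gene Dnmt3b -3.69 (SE 0.93). Each of these lost its call in some of the 12: Hist1h2bg in 2 (adjusted p up to 0.0606), Dnmt3b in 6 (up to 0.0804), Adgre4 in 8 (up to 0.13), Cd44 in 8 (up to 0.118), and Olfm4 and Trim16 in 10 (up to 0.126 and 0.107), the highest value coming without young male 2 each time. For Dnmt3b and Klrd1 the sexes did not differ past the threshold at 8 weeks (-0.75 and 0.93).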

How the results depend on the processing

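Of 106 genes with a printed value that passed at 8 weeks, 0 changed sign in any of the 20 alternatives that fitted them. In those alternatives 63 always passed, 43 lost the call in at least 1 and 5 in at least 5. A gene that a stricter filter or a missing length left out of a fit was not counted for that fit. The 8-week total stayed within 1.5 times of 1959 with other pseudocounts, filters, TMM, edgeR, DESeq2, thinning, equal totals and the length and GC trend removed. The fit of only the groups compared gave 1132 (558 higher in females, 574 in males), equal totals gave 379 and 1599, and leaving out young female 4 and young male 2 together, chosen after seeing the data, gave 687 (309 and 378). Leaving out each young library in turn gave 1078 to 1687 genes, 527 to 839 higher in females and 551 to 880 in males. For the differences between ages, against 49 genes for 52 weeks, no filter gave 78, DESeq2 226, the replicate block 22, the length and GC trend removed 25, and leaving out single libraries 20 to 61. Against 343 for 104 weeks, DESeq2 gave 680, the fit of only the groups compared 126, the replicate block 196, the fit without middle-aged female 2, aged male 1 and aged female 1 gave 202, and single libraries 129 to 413; the cause was not tested. The same-sign share at 104 weeks was 66.3% for differences of at least 1. With a replicate block 1653 genes passed at 8 weeks (808 and 845); the residual correlation of same-numbered libraries was -0.0052 and 0.0023, so the numbers do not pair them. Among genes that did not pass, Itgax turned to -0.12 with equal totals and to -0.057 with thinning, Nr3c1 to -0.0018 with equal totals and H2-Aa to -0.69 without both young libraries named above. Without single young libraries Itgax ranged from -0.47 to 0.41, H2-Aa from -0.68 to 3.02, C4b from -0.18 to 0.50, Esr1 from -0.029 to 0.70 and Cst7 from -0.066 to 0.52. Depth limits mainly genes under about 10 normalized counts, where a read is worth 0.83 to 1.25.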
